A study of Mus musculus with 33 samples.

Results

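Among postnatal day 5 (P5) single-cell libraries from the mouse heart ventricle, 2 kinds of cell were chosen by expression. They were 6 endothelial-like cells, which resemble the lining of blood vessels, and 5 cardiomyocytes, the contracting muscle cells. These 11 cells are compared here, out of 12 P5 cells and 33 cells in the whole series. The mice carried a transgenic green reporter of the cell cycle, mAG-Geminin of the FUCCI system, and ventricular cells were dissociated with enzymes and sorted by fluorescence as reporter positive or negative. All 5 cardiomyocytes (L1P5, L2P3, L2P7, L2P8 and L2P10) came from the positive sort. Of the endothelial-like cells, L2P12 came from the positive sort and L1N3, L2N4, L2N7, L2N9 and L2N10 from the negative sort. The last P5 cell, L2N12, was left out because fibroblast and mural transcripts led its profile, and 21 cells from embryonic day 14.5 were used as background only. The promoter that drives the transgene is not given in the labels, and no animal is named.

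The labels describe PCR checks meant to accept cardiomyocytes, by the troponin gene Tnnt2. Tnnt2, which encodes cardiac troponin T, stood at 1390, 3162, 5778, 7576 and 4899 counts per 1000000 counts of a cell (CPM) in the 5 cardiomyocytes. In the 6 endothelial-like cells it ranged from 0 to 128 CPM with a median of 3.37. The sequenced profile of these 6 cells therefore went against the labelled cell type. Their identity was selected on expression: Cdh5, Emcn, Fabp4 and Cav1 marked the endothelial-like set, Mybpc3 and Ldb3 the cardiomyocytes. The cell left out, L2N12, held 1463 CPM of an endothelial junction list, 1961 CPM of a sarcomere list and 19503 CPM of a fibroblast and mural list. In the 21 embryonic cells Cdh5, Emcn, Fabp4 and Flt1 had no read, and Mybpc3, Ldb3, Actc1 and Tnnt2 had a read in all 21. The differences between the sets are for that reason given as a description, with no test and no p-value. Each library is 1 cell, so the spread over cells is the only error available. Intervals of ratios cover counting error only, and reads of amplified RNA are not independent molecules.

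Endothelial cells line vessels, sense blood flow, and hold together through the cadherin encoded by Cdh5. Those of heart capillaries also carry fatty acids from blood to muscle, with lipid-binding proteins and the membrane pits called caveolae. Cardiomyocytes burn these fatty acids in mitochondria and contract with sarcomeres, arrays of actin and myosin whose shortening is triggered by calcium. Around birth cardiomyocytes stop dividing, while vessels keep growing with the heart.

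The promoters of 2 endothelial and 2 sarcomere genes, each at least 4-fold apart between the sets, are shown because both gene programs have well known DNA motifs: the ETS core AGGAAG in endothelial genes and the CArG box in sarcomere genes. Each sequence is the 250 bases before the RefSeq start site (build GRCm38.p6), read 5′ to 3′ on the gene's strand. Capitals mark AGGAAG or its reverse complement, the CArG box (CCWWWWWWGG, with W for A or T), and TATAAA. Emcn lies at chr3:137340828-137341077 (plus strand), Flt1 at chr5:147726012-147726261 (minus), Actc1 at chr2:114052876-114053125 (minus) and Myl3 at chr9:110763428-110763677 (plus).
Emcn: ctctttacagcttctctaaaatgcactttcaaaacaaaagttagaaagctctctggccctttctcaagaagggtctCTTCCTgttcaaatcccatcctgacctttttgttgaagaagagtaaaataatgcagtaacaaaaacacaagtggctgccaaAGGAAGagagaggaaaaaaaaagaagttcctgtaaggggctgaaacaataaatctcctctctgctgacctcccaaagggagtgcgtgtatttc
Flt1: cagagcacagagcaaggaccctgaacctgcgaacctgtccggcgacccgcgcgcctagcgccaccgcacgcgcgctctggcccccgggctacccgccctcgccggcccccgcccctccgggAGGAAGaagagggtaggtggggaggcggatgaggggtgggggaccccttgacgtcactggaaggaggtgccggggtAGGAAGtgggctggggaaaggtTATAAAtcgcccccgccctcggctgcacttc
Actc1: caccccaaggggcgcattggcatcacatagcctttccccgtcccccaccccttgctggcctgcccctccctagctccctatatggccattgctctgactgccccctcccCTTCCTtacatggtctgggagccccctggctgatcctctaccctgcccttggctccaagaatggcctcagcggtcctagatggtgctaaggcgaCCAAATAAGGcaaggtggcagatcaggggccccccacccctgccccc
Myl3: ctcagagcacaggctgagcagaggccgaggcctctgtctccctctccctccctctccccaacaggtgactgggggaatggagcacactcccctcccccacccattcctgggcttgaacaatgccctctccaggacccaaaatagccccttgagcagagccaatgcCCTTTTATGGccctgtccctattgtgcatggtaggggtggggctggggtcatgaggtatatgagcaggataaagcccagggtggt
Emcn held 1 AGGAAG on each strand, and Flt1 held 2 on its own strand, at -129 to -124 and -53 to -48 from the start. Actc1 and Myl3 each held 1 CArG box, at -47 to -38 and -85 to -76. Actc1 also held 1 ETS core. Each gene shown held the motif of its program, so these are examples and not a sample of the lists.

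Of the 64 genes in the endothelial junction, receptor and transcription factor lists, 42 had a promoter in the RefSeq table. AGGAAG was present on either strand in 21 of them (50%), against 32.3% of all 27025 genes with a promoter. The CArG box was present in none of the 42. Among the 27 of 32 sarcomere genes with a promoter, 7 held a CArG box (25.9%), against 1.62% of all genes, and 7 held AGGAAG. A box named MEF2 was in 4 of the 27 sarcomere promoters (14.8%), in 3 of the 42 endothelial ones (7.14%) and in 3.42% of all. TATAAA was in 2 of the 27, in 5 of the 42 (11.9%) and in 14.3% of all. No overlap between the motifs was removed. A match only says that these letters are present.

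Libraries held 5.15 to 28.4 M counts in endothelial-like cells (1 M is 1000000) and 2.55 to 26.7 M in cardiomyocytes, with 2994 to 8302 and 3991 to 8786 genes with a read. L2N4 and L1N3 had the fewest genes of the endothelial-like set, at 2994 and 3747. L1N3 and L2N10 also held red blood cell transcripts: the list summed to 229737 and 64300 CPM there, against 41.8 to 222 CPM in the other 4 endothelial-like cells and 5.11 to 301 CPM in cardiomyocytes. Most of it was Beta-s, a beta globin gene, at 225164 CPM in L1N3 and 60459 CPM in L2N10. Over the sets, 8 of 12 measured red blood cell genes were at least 4-fold higher in endothelial-like cells. In these cells 8 of 12 red blood cell markers reached 10 CPM, beside 18 and 19 of 19 endothelial junction markers. Pearson's r between cells, over log2(CPM + 1) of 11074 genes, ran from 0.33 to 0.57 (median 0.45) in the 15 pairs of endothelial-like cells and from 0.52 to 0.64 (median 0.60) in the 10 pairs of cardiomyocytes. It ran from 0.21 to 0.44 (median 0.34) in the 30 mixed pairs, so all cardiomyocyte pairs lay above the mixed pairs, and the endothelial-like pairs overlapped them. L2N4 was least like the rest of its set, at 0.33 to 0.35. These genes share the libraries and their depth.

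**Figure D1:**
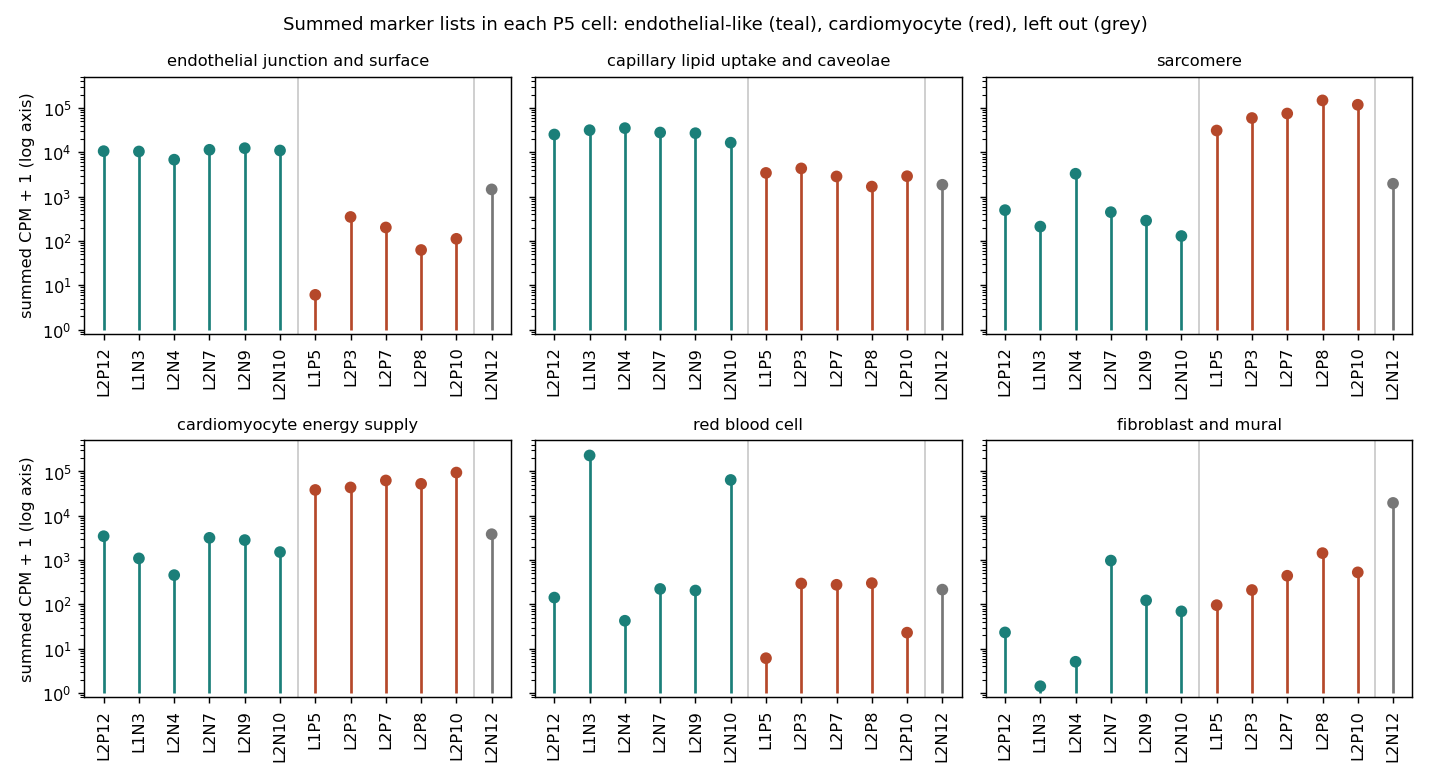
Summed CPM + 1 (vertical, log axis) of 6 marker lists in each of the 12 P5 cells (horizontal); 1 point is 1 cell. The 6 endothelial-like cells hold 6856 to 12467 CPM of the junction list and the cardiomyocytes 31220 to 149236 CPM of the sarcomere list, while L1N3 and L2N10 stand at 229737 and 64300 CPM in the red blood cell panel and no other cell passes 301 CPM.

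Over the whole table, 11074 genes had at least 10 counts in the 11 cells. Counts were summed within a set, and a log2 ratio above 0 means higher in endothelial-like cells. With 0.5 count added to each side, 3810 genes (34.4%) were at least 4-fold higher in endothelial-like cells and 2794 (25.2%) at least 4-fold higher in cardiomyocytes, and the median of all genes was 0.63. Every endothelial-like cell lay above every cardiomyocyte for 176 genes (1.59%). Every cardiomyocyte lay above every endothelial-like cell for 356 genes (3.21%). These 4 shares stand beside the counts below. Since expression also chose the sets, nothing is read from a list that exceeds them.

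The genes of endothelial junctions and surface were high in the endothelial-like set: 19 of 19 measured members were at least 4-fold higher, with a median log2 ratio of 10.76, and 9 did not overlap between sets. The 4 largest ratios, with 0.5 count added, were those of Icam1 (14.77), Ly6a (12.94), Pecam1 (12.54) and Eng (11.99). Nearly all counts of Icam1 came from L2N10 alone. Cdh5, the junction cadherin, stood at 343 to 4366 CPM (median 571) against 0, 0.0656, 0.479, 0.486 and 0.398 CPM. Its highest value was in L2N4 and its lowest in L2P12. Cd34, a surface sialomucin, was the most even, at 947 to 1382 CPM against 0 to 1.76 CPM. Cldn5, a tight junction protein, ranged from 32.8 to 373 CPM against 0 to 0.319. Emcn, a sialomucin of capillaries and veins, reached 547 to 1091 CPM in 5 cells but had no read in L2N4. Pecam1, an adhesion molecule, was likewise at 27.5 to 248 CPM in 5 cells and at 0 in L2N4. Only 7 of the 19 junction markers reached 10 CPM in L2N4, against 17 to 19 in the other 5 cells.

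Among 22 endothelial receptors, 21 were at least 4-fold higher (median log2 ratio 10.86) and 9 did not overlap. After Tek and Flt1, the largest ratios were those of Flt4 (12.87) and Calcrl (12.69). The lymphotoxin receptor Ltbr was the exception, at 0.90. Tek, the receptor of angiopoietins, was at 32.1 to 364 CPM and had no read in any cardiomyocyte, which makes it at least 4814-fold higher against a floor of 3 counts over the set. Kdr, the main receptor of VEGF-A, was at 699 to 8471 CPM against 0 to 1.52, a log2 ratio of 10.79 (95% exact interval 10.44 to 11.16). Flt1, another VEGF receptor, was at 54.6 to 281 CPM in 5 cells and at 0 in L2N4. Nrp1, a co-receptor of VEGF and semaphorins, was shared: 376 to 1707 CPM in endothelial-like cells and 63.7, 254, 65.5, 277 and 81.3 CPM in cardiomyocytes. The sets did not overlap for Nrp1, at 6.14-fold.

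All 21 measured endothelial transcription factors were at least 4-fold higher (median log2 ratio 9.87), and 7 did not overlap. Nr2f2 (13.30), Bcl6b (13.08), Sox17 (12.63) and Tal1 (11.87) had the largest ratios, that of Nr2f2 through L2N10 and L2N9 only. Sox18, of the SOXF family, was at 379 to 1108 CPM against 0 to 0.399. The ETS factor Elk3 was at 230 to 1294 CPM and Ets1 at 39.2 to 377 CPM, each below 0.5 CPM in every cardiomyocyte. Mef2c is listed for both endothelial cells and heart muscle. It was at 102 to 264 CPM in 5 endothelial-like cells, at 0 in L2N4, and at 47.9, 32.2, 50.5, 48.1 and 8.43 CPM in cardiomyocytes, so the sets overlapped only through L2N4.

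The capillary lipid and caveolae list held 13 of 16 genes at least 4-fold higher in endothelial-like cells, with 7 that did not overlap. Aqp1, a water channel, had the largest ratio (13.30), followed by Gpihbp1 (11.53), Cav2 (11.45) and Timp4 (11.21). Fabp4, a fatty acid binding protein, was at 6231 to 19386 CPM, with 10811 CPM in the positive cell L2P12, against 0, 1.38, 12.8, 7.74 and 6.92 CPM in cardiomyocytes. Cav1, the main protein of caveolae, was at 3095 to 6131 CPM against 0 to 3.51. Gpihbp1, which anchors lipoprotein lipase at the capillary wall, was at 90.8 to 764 CPM against 0 to 0.112. Lpl, the lipase itself, went the other way. It stood at 624, 2834, 1679, 763 and 1802 CPM in cardiomyocytes and at 1.75 to 1030 CPM in endothelial-like cells, a log2 ratio of -1.49 with overlap. The fatty acid transporter Cd36 was present in both sets, at 1640 to 3421 CPM against 310 to 1763. Ehd4, a membrane trafficking protein, was higher in cardiomyocytes without overlap (log2 ratio -4.15). The list's median of 9.13 became 7.23 without L1N3 and 7.33 without L1N3 and L2N10.

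**Figure D2:**
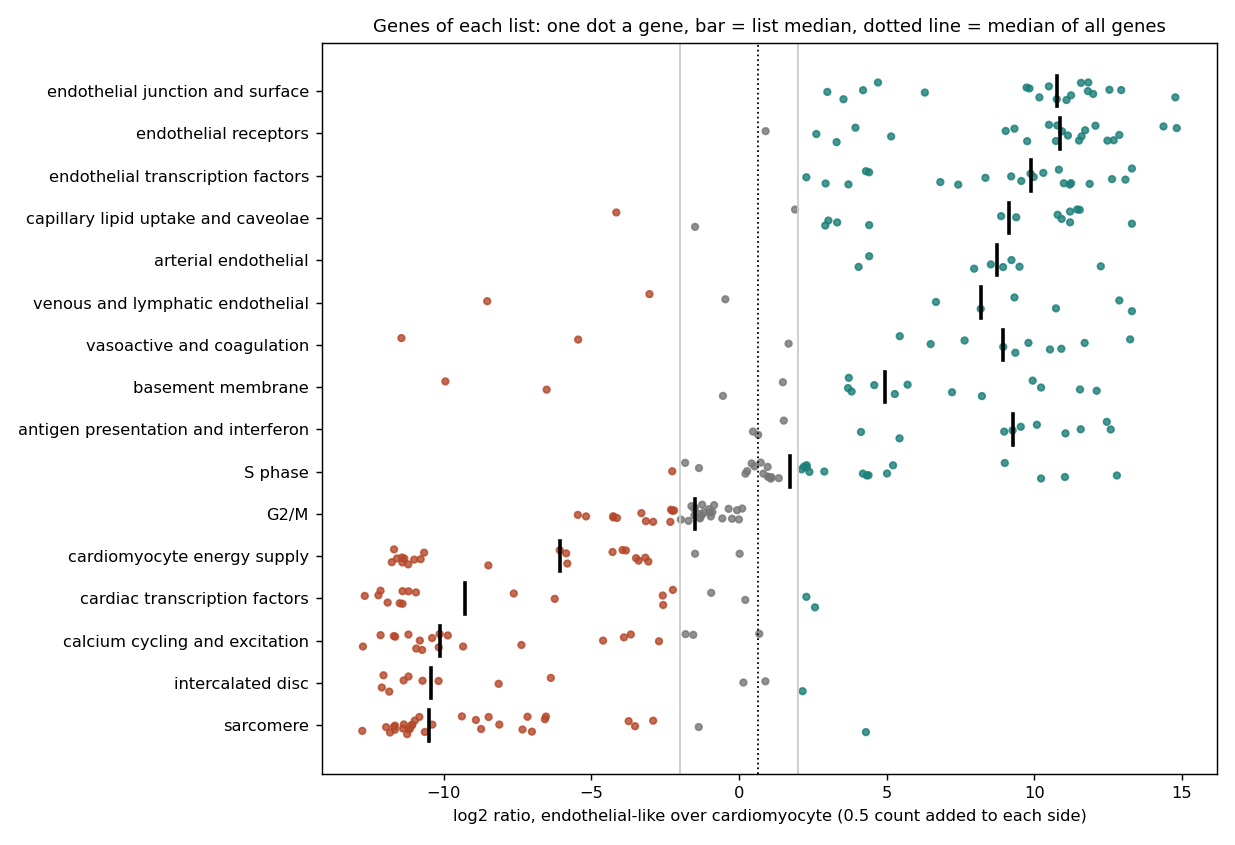
Log2 ratio of endothelial-like over cardiomyocyte summed CPM (horizontal, 0.5 count added) for each gene of 16 lists (vertical); black bars are list medians, grey lines 4-fold and the dotted line the median of all genes. The endothelial lists lie to the right, with medians up to 10.86, and the muscle lists to the left, down to -10.51. The medians of the 2 cell cycle lists lie inside the 4-fold lines, at 1.73 (S phase) and -1.50 (G2/M). Single genes run from -2.26 to 12.79 for S phase and from -5.46 to 0.11 for G2/M.

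Extracellular and signalling genes followed with more exceptions. In the basement membrane list, the sheet on which vessels and muscle fibres rest, 12 of 16 genes were at least 4-fold higher in endothelial-like cells (median log2 ratio 4.93, 6 without overlap). The collagen IV chain Col4a1 stood at 890 to 2907 CPM against 50.3, 38.7, 29.9, 233 and 112 CPM. The laminin chain Lama4 was at 9.20 to 547 CPM against 0 to 32.8, whereas Lama2, the laminin chain of muscle, was at 0, 14.9, 13.9, 111 and 8.51 CPM in cardiomyocytes and at most 0.178 CPM in the other set. Among vasoactive and coagulation genes, 10 of 13 were at least 4-fold higher in endothelial-like cells (median 8.94, 4 without overlap), and 2 were at least 4-fold higher in cardiomyocytes. Nos3, endothelial nitric oxide synthase, was at 0.583 to 165 CPM against 0 to 0.0374. The peptide gene Edn1, endothelin-1, was reversed: it reached 191 CPM in L2P8 and 23.6 CPM in L2P7, and had at most 0.0889 CPM in any endothelial-like cell. Antigen presentation and interferon genes were at least 4-fold higher for 10 of 13 (median 9.26, 2 without overlap). B2m was at 1223 to 2157 CPM in 5 endothelial-like cells, 23.9 CPM in L2N4 and 22.9 to 280 CPM in cardiomyocytes.

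Sarcomere genes summed to 129 to 3303 CPM in endothelial-like cells and to 31220 to 149236 CPM in cardiomyocytes. Of 32 sarcomere genes, 30 were at least 4-fold higher in cardiomyocytes (median log2 ratio -10.51) and 20 did not overlap. The lowest ratios were those of the M-band genes Myom2 (-12.75) and Myom1 (-11.95), then Xirp1 (-11.81) and Csrp3 (-11.68). Mybpc3, a thick filament protein, stood at 373, 557, 1109, 1180 and 2746 CPM in cardiomyocytes and at 0 to 2.44 CPM in endothelial-like cells. Ldb3, a Z-disc protein, was at 281, 393, 573, 511 and 817 CPM against 0 to 0.80. Actc1, cardiac actin, was at 8627 to 24450 CPM against 0 to 31.2, and Myl3, a myosin light chain, at 2948 to 52861 against 0.138 to 146. Myl7, the atrial light chain, had 12 reads in all, none in cardiomyocytes, and filamin C (Flnc) was under 4-fold at -1.36. L2N4 stood apart through 1 gene: Tnnc1, cardiac troponin C, was at 3266 CPM there and at most 29.6 CPM in the other 5 endothelial-like cells, against 247 to 3965 CPM in cardiomyocytes. No other sarcomere gene reached 10 CPM in L2N4.

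For calcium cycling and excitation, 18 of 21 genes were at least 4-fold higher in cardiomyocytes (median -10.13, 7 without overlap) and 3 were under 4-fold, Kcnh2, Camk2d and Kcnj2. Hrc (-12.73), Jph2 (-12.13), Cacna2d1 (-11.68) and Slc8a1 (-11.64) had the lowest ratios. Pln, which restrains the calcium pump, was at 1650 to 5058 CPM against 0 to 103. The pump gene Atp2a2 was at 1024 to 3431 CPM but also at 242 CPM in L2P12, for a smaller log2 ratio of -4.60. The ryanodine receptor gene Ryr2 was at 89.98 to 289 CPM against at most 0.40. The potassium channel gene Kcnj2 was at 275 CPM in L2N9 and 111 CPM in the cardiomyocyte L2P3, with a ratio of 0.69. The intercalated disc list overlapped in its sums, at 82.9 to 1280 CPM in endothelial-like cells and 952 to 2282 CPM in cardiomyocytes. Of 12 intercalated disc genes, which join muscle cells end to end, 9 were at least 4-fold higher in cardiomyocytes (median -10.44, 3 without overlap). Dsp, a desmosome protein, was at 129 to 689 CPM against at most 0.311. Gja1, connexin 43, was found in every cell of both sets, at 51.3 to 741 CPM in endothelial-like cells and 16.5, 531, 707, 167 and 126 CPM in cardiomyocytes, a log2 ratio of 0.15. Vcl, the adhesion protein vinculin, was at 0.89 with overlap, and Jup, plakoglobin, was higher in endothelial-like cells at 2.15.

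In the energy list, 21 of 23 genes were at least 4-fold higher in cardiomyocytes and 17 did not overlap. Lpl, listed here too, and Ppargc1b (0.02) were under 4-fold, whereas Ppargc1a, a driver of mitochondrial genes, was at -11.68. Mb, the oxygen store myoglobin, was at 578, 2278, 5625, 17397 and 12817 CPM against 0 to 13.2. Fabp3, the muscle fatty acid binding protein, was at 2769 to 19722 CPM against 0.276 to 71.8. The ADP/ATP carrier gene Slc25a4 was at 10911 to 40716 CPM in cardiomyocytes and 344 to 1993 in endothelial-like cells (log2 ratio -3.83), and the fat oxidation gene Acadm was at -3.07. The list's median of -6.07 was the least far from 0 of the 5 muscle lists and ran from -9.29 to -5.67 when single cells were left out, -9.29 without L2P12 and -9.04 without L2N9. Of 18 cardiac transcription factors, 14 were at least 4-fold higher in cardiomyocytes (median -9.28, 9 without overlap), led by Esrrg (-12.67) and Myocd (-12.21). Nkx2-5 was at 0.786, 6.17, 41.0, 33.1 and 21.6 CPM in cardiomyocytes and had no read in the endothelial-like set, at least 748-fold lower there. Ankrd1, a stress-responsive nuclear protein of heart muscle, was at 328 to 7488 CPM against 0 to 3.50. Gata4 (log2 ratio -0.94) and Mef2a (0.21) were under 4-fold. Mef2c and Mef2d were the 2 at least 4-fold higher in endothelial-like cells, Mef2d below 1 CPM in every cell.

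Families with a general and a striated muscle member were compared pair by pair, each gene with itself across the sets. In 24 of 25 pairs with both genes measured the muscle member was at least 4-fold higher in cardiomyocytes, and in 19 pairs it did not overlap. The general member was at least 4-fold higher in endothelial-like cells in 13 pairs, under 4-fold in 11 and at least 4-fold higher in cardiomyocytes in 1, Cox7a2 (log2 ratio -2.46). Both members differed at least 4-fold, in opposite directions, in 12 pairs. For actins, Actb was at 2923 to 6730 CPM against 321, 154, 122, 125 and 100 CPM, a log2 ratio of 5.25, while Actc1 was at -10.82. For tropomyosins, Tpm4 was at 1254 to 9169 CPM against 0 to 5.05 (10.24), while Tpm1 was at -6.53. For cadherins, Cdh5 was at 11.12 and Cdh2 at -10.85, and for fatty acid binding proteins Fabp4 was at 10.79 and Fabp3 at -8.48. These 4 pairs and the non-muscle and cardiac myosin heavy chains Myh9 and Myh6 were the 5 pairs in which neither gene overlapped. Cdh5 and Fabp4 here, and Cav1 and Ldb3 in other counted pairs, were markers that chose the sets, so their differences were fixed by that choice. In metabolism the general member was often under 4-fold: lactate dehydrogenase Ldha was at 0.21 beside Ldhb at -5.81, and creatine kinase Ckb at 0.29 beside Ckm at -11.21. The general cytochrome oxidase subunit gene Cox6a1 was at 146 to 772 CPM in endothelial-like cells and 316 to 2068 in cardiomyocytes, whereas Cox6a2 reached at most 4.66 CPM in endothelial-like cells against 1185 to 5303.

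**Figure D3:**
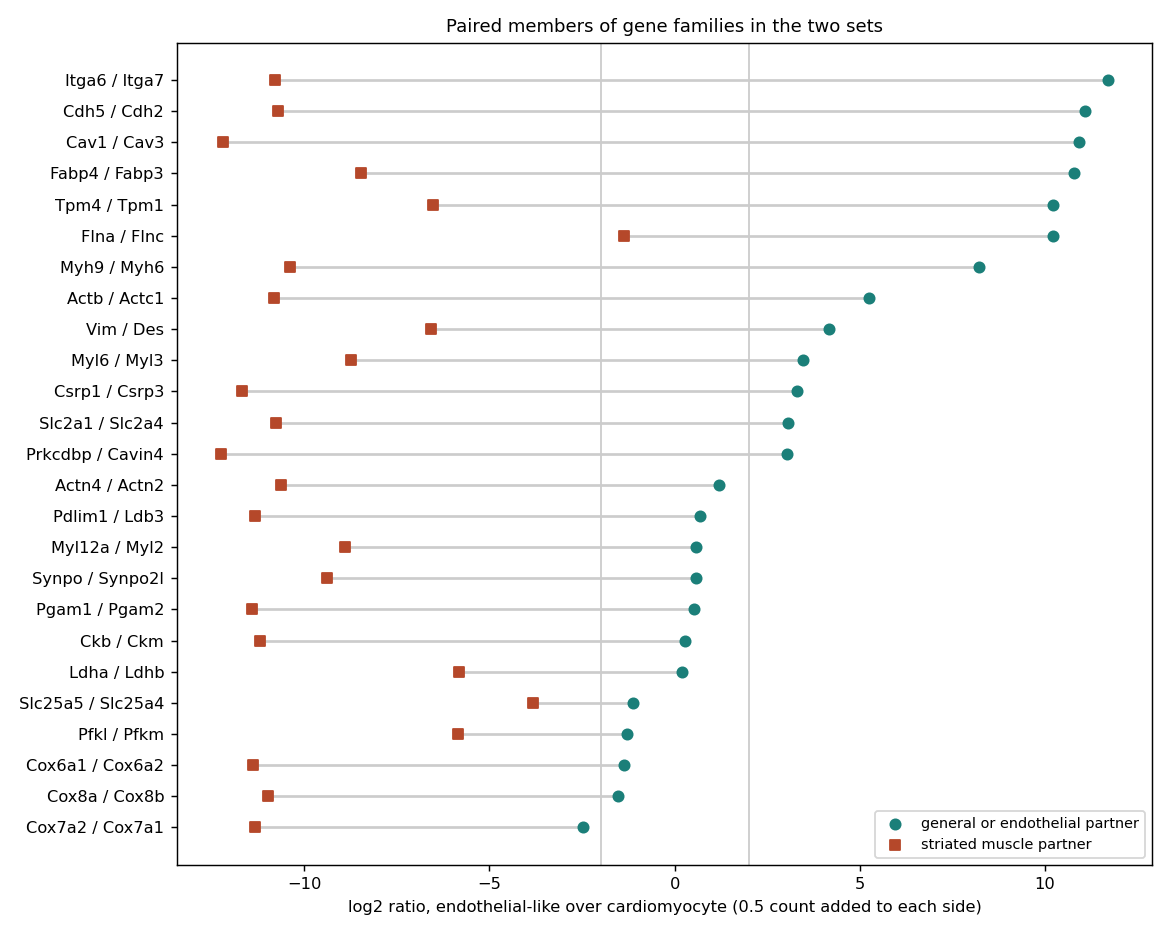
Log2 ratio of endothelial-like over cardiomyocyte summed CPM (horizontal, 0.5 count added) for 25 family pairs (vertical); circles are general or endothelial members, squares striated muscle members, and Cavin4 is the gene the files call Murc. In 24 pairs the square lies beyond the left 4-fold line, while circles spread from -2.46 to 11.71.

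Most measured receptors of a ligand and receptor table were higher in endothelial-like cells, while the ligands were divided evenly. Some of these receptors, such as Tek, are also in the endothelial receptor list. Of 24 measured receptors, 20 were at least 4-fold higher in endothelial-like cells (6 without overlap) and 2 at least 4-fold higher in cardiomyocytes. Of 21 measured ligands, 9 were at least 4-fold higher in each set and 3 were under 4-fold, and 2 in each direction did not overlap. Vegfb, a ligand of the receptor encoded by Flt1, was at 113, 73.2, 603, 669 and 359 CPM in cardiomyocytes and 0 to 55.8 CPM in endothelial-like cells, without overlap. Vegfa, the ligand of Kdr, was lower and uneven, at 4.32, 36.8, 66.7, 19.0 and 0.0796 CPM against 0 to 6.29. Nppb, a natriuretic peptide, was at 1495, 924, 8.70, 76.2 and 1119 CPM in cardiomyocytes and its receptor gene Npr1 at 464 CPM in L2N4, 187 CPM in L1N3, at most 6.83 in the other 4 and 0 in every cardiomyocyte. Igf2, a growth factor, was at 334 to 1994 CPM in endothelial-like cells against 44.0, 0.0656, 118, 14.02 and 171 CPM. Apln and its receptor Aplnr were both in the endothelial-like set. Apln was at 3858 CPM in L2N4 and at 1.18 and 1.38 CPM in L2N9 and L2N10, and Aplnr was at 123 to 140 CPM in 4 cells, 13.01 in L2N4 and 3.80 in L2N10. The stem cell factor gene Kitl and its receptor Kit were in 5 and 4 endothelial-like cells above 10 CPM and below 7 CPM in every cardiomyocyte. Nrg1 and Erbb4 had 4 reads between them, so no pair could be read there.

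The endothelial-like cells differed among themselves in vessel-type genes. The arterial list summed to 976 CPM in L2N7 and to 0.194 to 205 CPM in the other 5. In L2N7 the netrin receptor Unc5b was at 729 CPM and the chemokine receptor Cxcr4 at 203 CPM. Efnb2, the arterial ephrin, was highest in L2N9, at 145 CPM. All 8 measured arterial genes were at least 4-fold higher in endothelial-like cells (median 8.73), none without overlap. Of 9 measured venous and lymphatic genes, 6 were higher and 2, Prox1 and Vcam1, were higher in cardiomyocytes (median 8.18). Nr2f2, a factor of venous identity, was at 342 CPM in L2N10 and 132 CPM in L2N9 and at most 0.176 CPM in the other 4. L2N10 also had 1228 CPM of the adhesion molecule Icam1 and 1588 CPM of thrombomodulin (Thbd). Of 6 measured endocardial genes, 5 were higher in endothelial-like cells and 1, Tmem100, in cardiomyocytes (median 4.74). Npr3 and Cytl1, known endocardial markers, were at or near 0 in all 6 cells. Plvap, a protein of fenestrated capillaries, was at most 1.09 CPM.

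**Figure D4:**
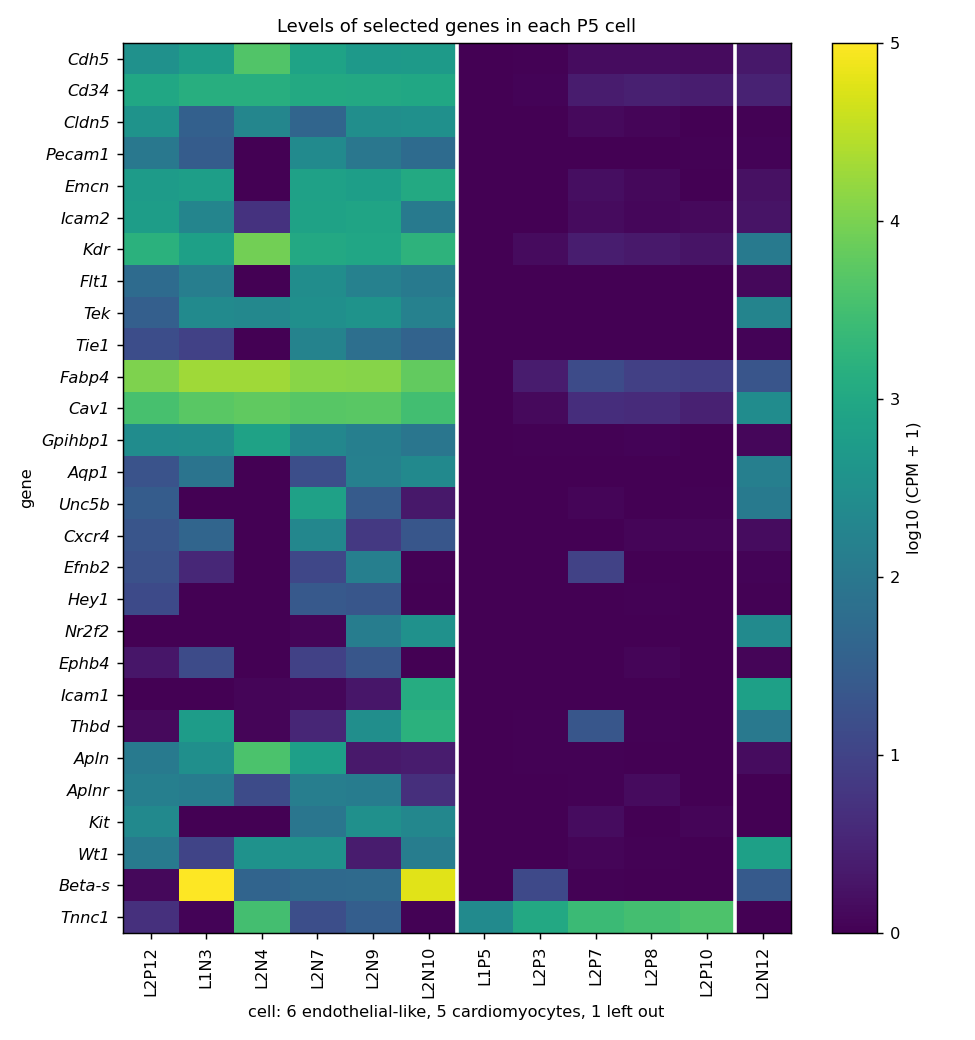
Log10(CPM + 1), as colour, of 28 genes (rows) in the 12 P5 cells (columns), with white lines between the sets. Cdh5, Cd34, Fabp4 and Cav1 are bright in all 6 endothelial-like cells, Emcn and Pecam1 are dark in L2N4, Unc5b is brightest in L2N7 and Nr2f2 in L2N10, and Beta-s stands out in L1N3 and L2N10.

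Markers of other cells were read in the same way. Fibroblast and mural markers summed to 974 CPM in L2N7, 0.425 to 122 CPM in the other endothelial-like cells and 19503 CPM in L2N12. The sum in L2N7 came from Abcc9 (480 CPM), Kcnj8 (439 CPM) and Postn (46.7 CPM), while Col1a1, Dcn and Tagln were at or below 2.25 CPM in this cell. In cardiomyocytes the list summed to 95.1 to 1435 CPM, of which Acta2, smooth muscle actin, was 57.4 to 1170 CPM. Acta2 did not overlap between sets (at most 0.711 CPM in endothelial-like cells). Of 10 measured genes, 8 were at least 4-fold higher in endothelial-like cells and 2, Acta2 and Cspg4, in cardiomyocytes (median 4.41). Leukocyte markers summed to 0 to 6.55 CPM in all 11 cells, with Lyz2 and Csf1r at 0, and the only measured one, Cd68, was higher in cardiomyocytes (log2 ratio -5.39). Platelet markers summed to 0 to 96.6 CPM, 2 of 4 higher in each set, with Pf4 at 62.3 CPM in L2P12 and Clec1b at 96.5 CPM in L2N9. Of 5 measured epicardial markers 4 were higher in endothelial-like cells and 1, Krt18, in cardiomyocytes (median 5.80). Wt1 did not overlap, at 1.45 to 346 CPM in endothelial-like cells against 0 to 0.16, while Upk3b, Msln and Tbx18 were at or below 1.36 CPM. Their part in the results was not tested.

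Genes of the endothelial and capillary lists had reads in cardiomyocytes. Genes of the sarcomere, calcium and energy lists had reads in endothelial-like cells. They were taken by level in their own set only, so genes present in both sets, such as Nrp1, Cd36 and Slc25a4, are counted too. Of 57 endothelial genes with at least 100 CPM in the endothelial-like set, 11, 31, 51, 49 and 43 had a read in L1P5, L2P3, L2P7, L2P8 and L2P10. The median level was 0%, 0.00738%, 0.114%, 0.0708% and 0.0586% of the endothelial-like level. Those under 1% of it, genes without a read included, numbered 46, 44, 42, 45 and 45 of the 57, and 8 to 15 genes reached 10 CPM. L1P5, at 2.55 M counts, was the shallowest library. Of 50 muscle genes with at least 100 CPM in cardiomyocytes, all 50 had a read in L2P12, at a median of 0.143% of the cardiomyocyte level. In the 5 endothelial-like cells of the negative sort, 24 to 39 had a read, with medians of 0% to 0.0478%. Under 1% of the cardiomyocyte level were 39 of 50 in L2P12, 37 in L2N7, 35 in L2N9, 45 in L1N3 and L2N10 and 48 in L2N4. In L2P12, L2N7 and L2N9, 15, 18 and 16 of the 50 reached 10 CPM, against 2 to 8 in the other 3 cells. Where these reads came from was not tested.

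G2/M genes were high in 4 of 5 cardiomyocytes and in the only reporter-positive endothelial-like cell. The list, which holds genes of mitosis, summed to 21003, 18206, 17175, 19254 and 46.9 CPM in cardiomyocytes and to 16777 CPM in the reporter-positive L2P12. In the reporter-negative endothelial-like cells it summed to 7.64, 167, 1029, 2259 and 322 CPM in L1N3, L2N4, L2N7, L2N9 and L2N10. L2P12 thus lay just below 4 of the cardiomyocytes and above every negative cell, and the cardiomyocyte L2P10 was low despite its positive sort. Dlgap5 (-5.46), Ect2 (-5.18), Cdca3 (-4.26) and Kif20b (-4.26) had the lowest ratios. Gmnn, the gene of the protein on which the reporter is built, was at 222 CPM in L2P12 and 181 CPM in L2N9, at 0 to 29.7 CPM in the other endothelial-like cells, and at 57.4, 249, 236, 29.9 and 1.35 CPM in cardiomyocytes. Of 35 G2/M genes, 12 were at least 4-fold higher in cardiomyocytes and none in endothelial-like cells, with a median log2 ratio of -1.50. Without L2P12 the median was -4.40, and with reporter-positive cells only (L2P12 against 5 cardiomyocytes) it was 0.30. Since 5 of 6 endothelial-like cells are negative and no cardiomyocyte is, cell kind and sort cannot be told apart for these genes.

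The S phase list, genes of DNA replication, went the other way: 15 of 30 were at least 4-fold higher in endothelial-like cells and 1, Rrm2, in cardiomyocytes (median 1.73), with none free of overlap. Dtl (12.79), Cdc6 (11.03) and Cdca7 (10.23) had the largest ratios. It summed to 23031 CPM in L2N4, 11079 in L2N9, 6477 in L2P12, 6325 in L2N10, 1584 in L2N7 and 821 in L1N3, against 3180, 2428, 7032, 1720 and 419 CPM in cardiomyocytes. The replication helicase gene Mcm6 was at 330 to 1641 CPM in L2P12, L2N4, L2N9 and L2N10 and at 476 CPM in L2P7, and at most 36.2 CPM in every other cell of both sets. In L2N4 the sum rested on few genes: the DNA polymerase gene Pola1 was at 9813 CPM, Mcm2 at 3482 and Cdc45 at 2744, while Mcm5, Mcm7 and Tyms were at 0. Without L2N4 the list's median was 1.18, and with reporter-positive cells only, L2P12 against the cardiomyocytes, it was 1.59. The sort divides the sets here as it does for G2/M, so cell kind and sort cannot be told apart for S phase genes either.

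**Figure D5:**
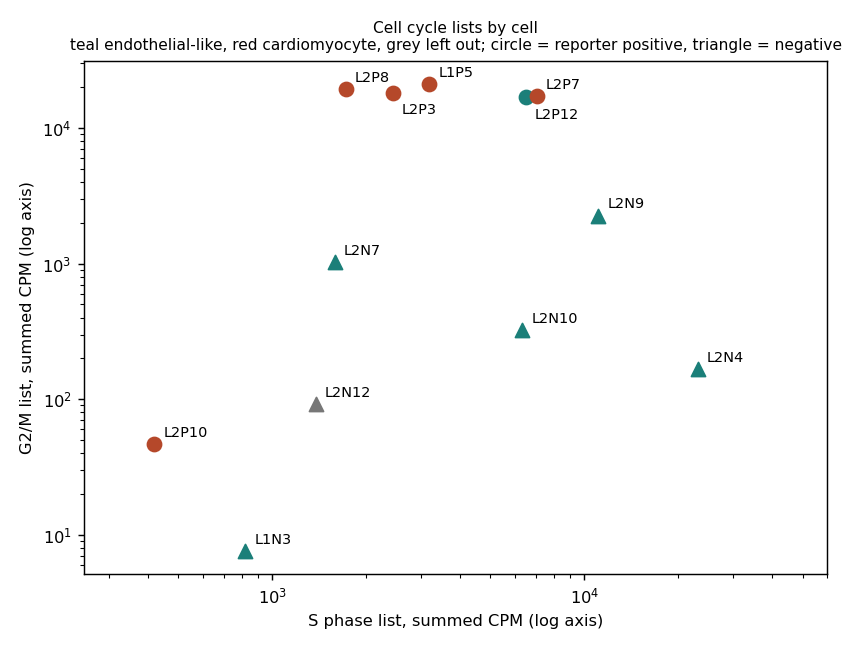
Summed CPM of the S phase list (horizontal, log axis) and the G2/M list (vertical, log axis) in each of the 12 P5 cells, circles for the positive and triangles for the negative sort. L2P12 lies beside the cardiomyocyte L2P7 in the upper right, the negative endothelial-like cells lie at 7.64 to 2259 CPM of G2/M, and the cardiomyocyte L2P10 lies low on both axes.

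Over all genes, a further rule kept those without overlap whose higher set had 50 CPM or more, both summed and in its median cell, with no more than 50% of its counts from 1 cell. It was met by 121 genes for endothelial-like cells and 174 for cardiomyocytes. The 10 highest ratios belonged to Tek, Rai14, Apln, Fmo1, Ifitm3, Cmtm8, Cmtm3, Col18a1, Ecscr and Eng. Cmtm8 was the most even of them, at 122 to 439 CPM against 0 to 0.112. Ecscr, an endothelial surface protein, was at 99.2 to 309 CPM in 5 cells and 0.194 CPM in L2N4. Ifitm3, an antiviral membrane protein, was at 75.0 to 194 CPM in 5 cells and 0.971 CPM in L2N4. The 10 lowest belonged to Tceal5, Yipf7, Cap2, Tmeff1, Hfe2, Murc, Fam213b, Srl, Rnf128 and Ndrg4. Non-overlap can rest on very few reads: Tceal5 was at 814, 71.1, 117, 0.0374 and 1.03 CPM in cardiomyocytes, with no read in the other set. Rai14, among the highest, was at 0.182 CPM in L2N9 and had no read in cardiomyocytes. Yipf7 was at 951, 320, 174, 162 and 388 CPM in cardiomyocytes and at most 0.0889 CPM in the other set. Srl, sarcalumenin of the sarcoplasmic reticulum, was at 201, 452, 359, 591 and 756 CPM against at most 0.355, a log2 ratio of -12.36 (95% exact interval -13.49 to -11.44). Murc, cavin-4 of muscle caveolae, was at 13.4, 73.7, 111, 33.8 and 183 CPM and had 1 read in the endothelial-like set.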

How the data were processed

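RNA of single cells was reverse transcribed, amplified as antisense RNA and sequenced from TruSeq libraries, per the labels' protocols. The authors deposited 1 table of raw counts per gene for 33 cells. CASAVA 1.8.2, STAR 2.4.0j, HTSeq 0.6.1p1 and build mm10 are named in the submitters' processing notes, without settings, and use of strand or molecular identifiers is not given in the sources used here. Of 14862 rows, 22 had been turned into dates by a spreadsheet. They were kept in totals and left out of gene tables. Near-identical genes such as globins can share reads.

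Counts were divided by each cell's total to give CPM. Within a set they were summed, with 0.5 count added to each side of list ratios and none to single ratios, which have exact (Clopper-Pearson) intervals at 95%. Genes at 0 in a set are bounds against 3 counts over the set. With these genes at their bounds the sarcomere median was -9.77 and the receptor median 10.19. Cells are single libraries with no animal named, so the sets were not tested against each other. Dixon's limit was used only to pick out single cells within a set, on values without a log scale. The members and the 22 lists were chosen with earlier results of these data known. Named genes are, per list, up to 4 with the largest ratios and those against the list, and over all genes the 10 highest and 10 lowest ratios under the rule given above. Other list members named were chosen after their values were seen. Alternatives used edgeR 4.0.16 and DESeq2 1.42.0 factors, and the calculation was tested on simulated counts. Those counts had counting error only and no spread between cells of a set. They check the arithmetic and say nothing about calls or non-overlap in these cells. Promoter sequences are RefSeq's, build GRCm38.p6, the patched form of mm10.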

Additional observations from a re-analysis of the deposited data

Results flagged for a closer look

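Within each set, the highest or lowest cell was set against Dixon's 95% limit for totals, genes with a read and 20 summed lists. The limit was passed in 13 of these 44 comparisons. For independent, normally distributed values chance would flag about 1 in 20, or 2.2. Sums without a log scale, from the same few cells, are not such values, so 13 cannot be read against 2.2. Among endothelial-like cells L2N4 was lowest for the junction and surface list, at 6856 CPM against 10502 CPM in the next cell. L2N4 was highest for the endocardial list (1694 CPM, next 185), which there is nearly all Cgnl1, for the vasoactive and coagulation list (5984 CPM, next 2511), led by Apln and Tfpi, and for the sarcomere list (3303 CPM, next 497), which is Tnnc1. L2N7 was highest for the arterial list (976 CPM, next 205) and the fibroblast and mural list (974 CPM, next 122). L2P12 was highest for G2/M, at 16777 CPM against 2259. L1N3 was highest for red blood cell transcripts, at 229737 CPM against 64300 in L2N10.

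Among cardiomyocytes L2P10 was lowest for G2/M, at 46.9 CPM against 17175 in the next cell. L2P8 was highest for the basement membrane list, at 789 CPM against 345. L1P5 was highest for the endocardial list, at 169 CPM against 20.4, made up of Nfatc1 (101 CPM) and Tmem100 (67.2 CPM). L2P7 was highest for the arterial list, at 8.70 CPM against 0.716, nearly all Efnb2, and for the epicardial list, at 47.9 CPM against 1.46, nearly all Krt18.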

How the results depend on the processing

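No paired analysis was possible because the sets were chosen by expression, no comparison of the sets comes from a test, and the cells' numbers do not name animals. Among 1060 values under other settings, no ratio or median at least 4-fold from equality changed sign. The 1060 include gene counts, which have no sign, and medians under 4-fold, which were not judged. Of these medians, that of G2/M went from -1.50 to 0.30 with reporter-positive cells only. Another 572 of the values belong to 26 single genes, the markers that chose the sets and the genes with the most extreme ratios. A change of sign was hardly possible for them. The all-gene median of 0.63 was 0.53 with edgeR TMM factors, 0.54 with DESeq2 size factors and 0.49 with equal weight for each cell, and -0.78 with reporter-positive cells only. That last choice leaves L2P12 against 5 cardiomyocytes: 2581 genes were higher in L2P12 and 4431 in cardiomyocytes, and 3056 and 786 did not overlap. List medians under it were 3.95 for venous and lymphatic, 6.15 for antigen presentation, -8.95 for calcium cycling, -8.46 for intercalated disc and -9.22 for energy supply. With L2 titles only, 281 and 597 genes did not overlap, and medians were 7.17 for capillary lipid and 7.38 for endocardial genes. Without L1N3 and L2N10, 298 genes were higher in every endothelial-like cell. Non-overlap is easier to meet with fewer cells, so its counts rise by construction under these choices of cells. Thinning each cell to 2545036 counts gave medians of 7.10 (vasoactive), -9.21 (sarcomere), -8.73 (calcium cycling) and -9.72 (intercalated disc). An added count of 5 gave 5.78 (arterial), 7.03 (vasoactive), -9.00 (sarcomere), -8.39 (calcium cycling), -8.45 (intercalated disc) and -7.52 (cardiac transcription factors), whose median was -11.06 at a filter of 100 counts. A larger added count moves ratios with few counts on 1 side toward 0 by arithmetic. The cause of the other shifts was not tested.

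Leaving out each cell in turn, genes without overlap numbered 180 to 402 for endothelial-like cells (402 without L2N4). For cardiomyocytes they numbered 370 to 562 (562 without L1P5). Fewer cells make non-overlap easier to meet, so these counts could hardly fall and do not measure stability. Genes at least 4-fold higher numbered 3473 to 4284 for endothelial-like cells and 2427 to 3276 for cardiomyocytes. Medians ran from 7.23 to 10.16 for capillary lipid, 3.81 to 7.26 for endocardial (7.26 without L1P5, 6.33 without L2P7), -11.26 to -9.58 for calcium cycling, -11.47 to -9.47 for intercalated disc, -9.29 to -5.67 for energy supply (-7.93 without L2N7, -9.04 without L2N9) and -10.87 to -8.72 for cardiac transcription factors (-10.38 without L2N7). Depth limits what a 0 means, most in L1P5 and L2N4.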
